A study of Mus musculus with 6 samples.

Results

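Of the genes measured, 10 that encode chemokines of lymphoid tissue or survival factors of lymphocytes were followed across the stromal cells of the mouse omentum. The 10 genes were taken by symbol, out of 23352 gene symbols measured, and all 10 were found. They are the chemokine genes *Cxcl13*, *Ccl19*, *Ccl21a*, *Cxcl12*, *Cxcl14* and *Cxcl16* and the cytokine genes *Il7*, *Tnfsf13b*, *Il15* and *Il33*. RNA-seq had been performed on 6 stromal populations sorted from omenta of wild-type C57BL/6 mice, with 1 library for each population. P1, P2 and P3 were CD45-CD140a+CD105+ cells with high, intermediate and low activity of aldehyde dehydrogenase (ALDH), the enzyme class that makes retinoic acid. P4 and P5 were CD45-CD140a+CD105- cells with intermediate and low ALDH activity, and P6 was a CD45-CD140a low population with ALDH activity. The age of the mice and the number pooled for each library were not given in the sources used here.

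The omentum carries milky spots, lymphoid clusters held in the fat by stromal cells. In lymphoid tissue, stromal cells sort lymphocytes by chemokines: CXCL13 draws B cells through CXCR5, CCL19 and CCL21 draw T cells and dendritic cells through CCR7, and CXCL12 attracts and retains many leukocytes through CXCR4. The same cells feed lymphocytes with survival factors, among them IL-7 for T cells and innate lymphoid cells and BAFF (encoded by *Tnfsf13b*) for B cells.

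Values were FPKM, the fragments of a gene divided by its transcript length and by the total mapped in the library, which allows genes to be set side by side. With 1 library per population no test between populations was possible, so that ratios are given with 95% intervals that cover counting error only and say nothing of the spread between mice. Depth was estimated at 36.8 to 61.6 M reads per library, with P6 the shallowest, and FPKM summed to between 384939 and 407807. *Pdgfra*, which encodes CD140a, was listed at 117 to 154 FPKM in P1 to P5 and at 5.36 FPKM in P6. *Eng*, which encodes CD105, was listed at 42.6 to 52.4 FPKM in P1 to P3 and at most at 0.728 FPKM in P4 to P6. *Aldh1a2*, the retinaldehyde dehydrogenase gene of the omental stroma, was listed at 469, 78.8, 134, 285, 145 and 209 FPKM in P1 to P6, respectively. It was highest in P1, but P2, gated as intermediate, lay below P3, gated as low, and P4 lay above both, so that across the 6 libraries this transcript did not follow the ALDH activity by which cells were sorted. For *Ptprc*, the CD45 gene, the highest level in any library was 0.755 FPKM. The reticular cell marker *Pdpn* was listed at 78.8 to 125 FPKM in all libraries, *Vcam1* at 39.0 to 98.2 FPKM in P1 to P5 and at 3.54 FPKM in P6, and *Madcam1* at most at 0.0398 FPKM. Levels in a bulk library cannot tell fewer cells of a type from less RNA per cell.

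The RefSeq sequences upstream of *Cxcl13* and *Cxcl12* are shown because these genes had the widest ranges of level among the populations, *Ccl21a* aside. Each run holds the 250 bases before the start site in GRCm38.p6, 5′ to 3′ on the gene's strand, the plus strand for both, at chr5:95956689-95956938 and chr6:117168285-117168534. Capitals mark matches to any of 4 motifs, searched on both strands. The TATA box was searched as the letters TATAAA, the core bound by kappa-B factors as GGGNNNNNCC, the half-site of nuclear receptors as AGGTCA and the box bound by Sp1, called the GC box, as GGGCGG, and the kappa-B core and the GC box can overlap.
Cxcl13: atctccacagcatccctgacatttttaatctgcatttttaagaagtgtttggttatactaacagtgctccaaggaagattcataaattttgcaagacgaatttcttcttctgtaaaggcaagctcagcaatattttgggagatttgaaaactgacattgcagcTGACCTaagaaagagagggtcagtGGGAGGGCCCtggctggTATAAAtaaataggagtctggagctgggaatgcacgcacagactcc
Cxcl12: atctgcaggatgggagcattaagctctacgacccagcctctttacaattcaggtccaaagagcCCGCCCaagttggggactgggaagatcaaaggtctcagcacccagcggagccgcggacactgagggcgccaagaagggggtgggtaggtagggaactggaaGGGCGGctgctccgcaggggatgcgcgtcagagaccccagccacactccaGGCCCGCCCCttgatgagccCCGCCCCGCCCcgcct
The *Cxcl13* run held a TATA box that began 46 bases before the start site, 1 kappa-B core from 63 to 54 bases before it that reads as a match on both strands, and 1 half-site, with no GC box. In the *Cxcl12* run there were 5 GC boxes and 1 kappa-B core that overlapped a GC box, with neither a TATA box nor a half-site. Over all 32851 promoter windows of the same length, 12.4% held the TATA box, 45.8% the kappa-B core, 14% the half-site and 32.7% the GC box. A match is a description of letters and not a site shown to be bound. Entries were found for 7 of the 10 genes.

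*Cxcl13* (chromosome 5, 95956939 to 95961068) was the most abundant of the 10 genes in P3, P4 and P5, and its levels spread widely. Its level was 209, 304, 2090, 825, 3464 and 47.4 FPKM in P1 to P6, respectively. The populations with low ALDH activity, P3 and P5, stood highest, and *Cxcl13* ranked 3 among all 23352 genes in P5 and 6 in P3. P5 exceeded the next highest, P3, by 1.66-fold (1.65 to 1.67), and P5 exceeded P6, the lowest, by 73.1-fold. Every step in the order P5, P3, P4, P2, P1 and P6 was larger than counting error. *Cxcl13* made up 90.4% of the summed FPKM of the 10 genes in P5, 70.4% in P4 and 68.2% in P3, against 27.2% in P1, 25.7% in P2 and 26.7% in P6.

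**Figure D1:**
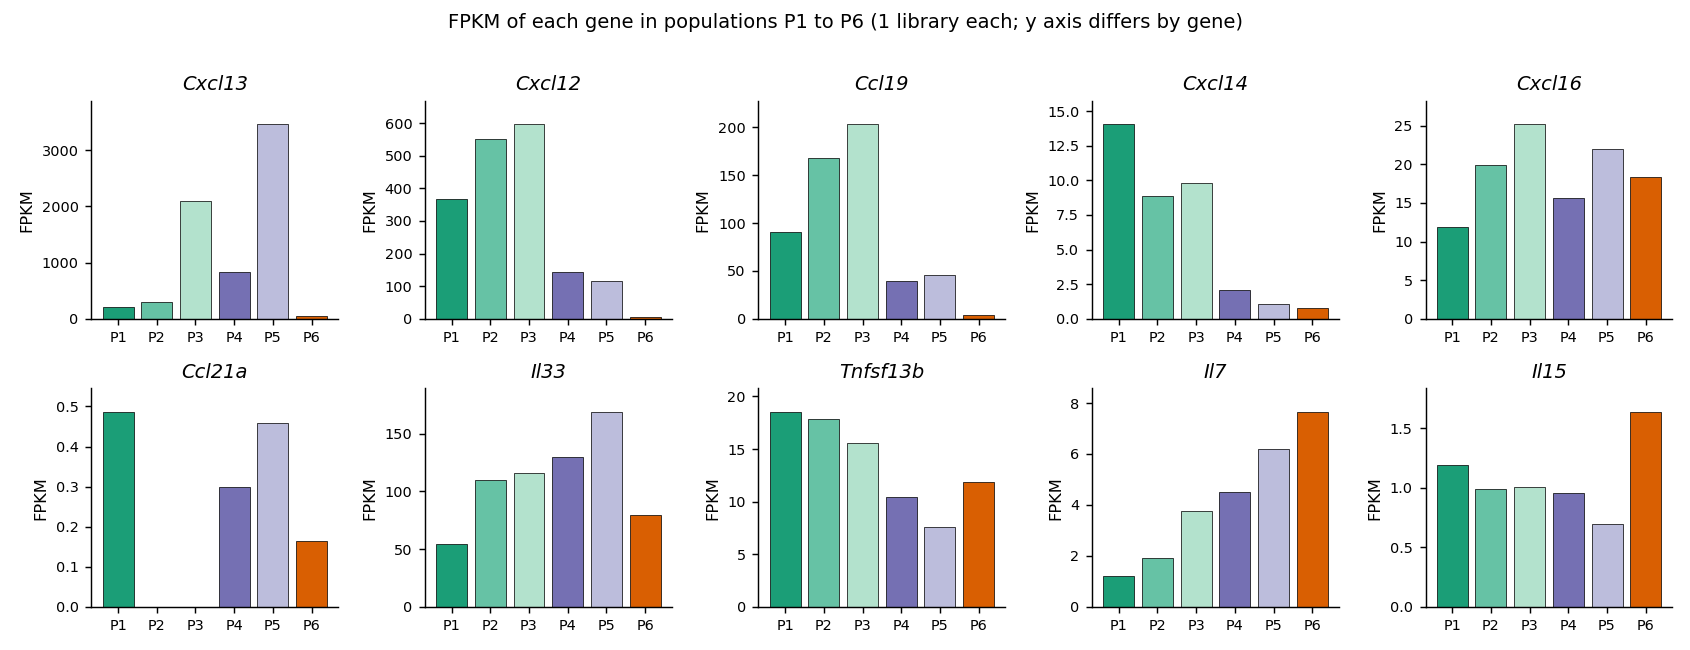
FPKM (y axis, from 0, scaled for each gene) of the 10 genes in populations P1 to P6 (x axis), with 1 bar for 1 library. *Cxcl13* peaks at 3464 FPKM in P5, *Cxcl12* and *Ccl19* peak in P3 at 597 and 204 FPKM, and *Il7* runs from 1.21 FPKM in P1 to 7.65 FPKM in P6.

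*Cxcl12* (chromosome 6, 117168535 to 117181368) was highest in the CD105+ populations. It was listed at 366, 551, 597, 144, 117 and 6.36 FPKM going from P1 through P6. The 3 CD105+ libraries lay above both CD105- libraries, and P6 was 18.4-fold below P5, its neighbour in the order (16.6 to 20.4). P3 and P2 were close, at a ratio of 1.08 (1.07 to 1.10).

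*Ccl19* (chromosome 4, 42754525 to 42756365), a ligand of CCR7, followed the same order but for P4 and P5. Its FPKM was 90.8, 168, 204, 39.8, 46.0 and 3.60 across P1 to P6 in that order. P5 and P4 differed by 1.16-fold (1.07 to 1.25), and P6 was 11.05-fold below P4 (8.71 to 14.2). The ratio of *Ccl19* to *Cxcl12* within a library varied little, from 0.248 in P1 to 0.566 in P6, a spread of 2.28-fold. In contrast, the ratio of *Cxcl13* to *Cxcl12* was 0.571, 0.552, 3.50, 5.75, 29.7 and 7.45 in P1 to P6, respectively, a spread of 53.7-fold. A ratio within a library does not depend on how libraries are scaled.

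**Figure D2:**
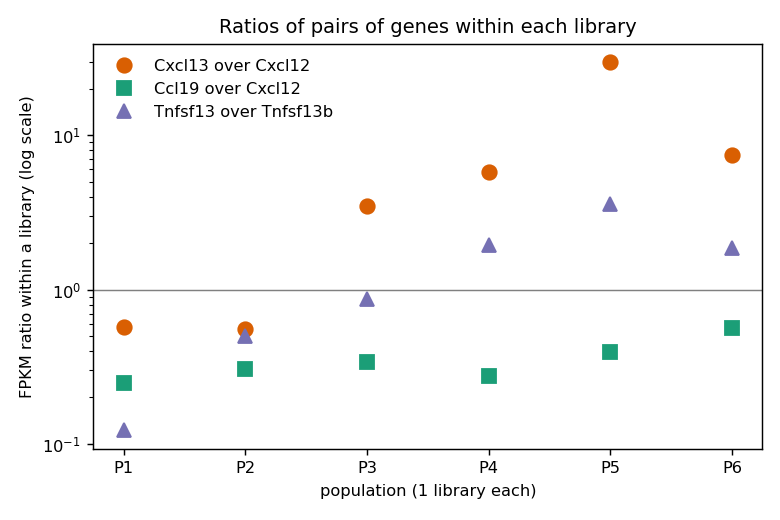
Ratio of the FPKM of a pair of genes within each library (y axis, log scale) for populations P1 to P6 (x axis), 1 point for 1 library. *Cxcl13* over *Cxcl12* lies below 1 in P1 and P2 and reaches 29.7 in P5, *Ccl19* over *Cxcl12* stays between 0.248 and 0.566, and *Tnfsf13* over *Tnfsf13b* runs from 0.122 in P1 to 3.61 in P5.

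*Cxcl14* (chromosome 13, 56288643 to 56296811), a chemokine made by many resting tissues, was present at far lower levels. It was listed at 14.1, 8.88, 9.77, 2.098, 1.04 and 0.815 FPKM going from P1 through P6. P1 was highest, by 1.44-fold over P3 (1.32 to 1.57), and the CD105+ libraries all lay above the others. P5 and P6 did not differ beyond counting error, with a ratio of 1.28 (0.905 to 1.84).

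*Cxcl16* (chromosome 11, 70454389 to 70459984), a membrane-bound ligand of CXCR6, was the most even of the 10 genes. Its FPKM was 11.9, 19.9, 25.2, 15.6, 22.0 and 18.3 across P1 to P6 in that order. The highest library exceeded the lowest by 2.11-fold, and P6 lay within the range of the others, while after division by *Gapdh* P4 was the lowest in place of P1. Within both the CD105+ and the CD105- cells, the population with low ALDH activity was the higher.

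For *Ccl21a* (chromosome 4, 42772860 to 42773991), the second CCR7 ligand, no level could be read. The symbol was listed at 0.486, 0.000134, 0.000202, 0.298, 0.458 and 0.164 FPKM in P1 to P6, respectively. *Ccl21a*, *Ccl21b* and *Ccl21c* are near-identical copies that share reads, and they filled 14 rows, 9 of them above 0 in any library, with the same values repeated within a symbol. A single symbol varied between libraries by 107- to 6665-fold, whereas the sum of all rows varied by 2.97-fold, with 4.37, 3.54, 4.17, 2.25, 3.19 and 1.47 FPKM going from P1 through P6. The sum counts repeated rows more than once, and with 1 row per symbol it was 0.491 to 1.46 FPKM. Lymphatic endothelial cells are a known source of CCL21, and their 5 markers summed to 0.779 to 2.29 FPKM. Most of this was *Lyve1*, at 0.645 to 1.85 FPKM, while *Prox1* was at most at 0.205 FPKM and at 0 in P6. By either sum the *Ccl21* copies lay well below *Ccl19* in P1 to P5.

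**Figure D3:**
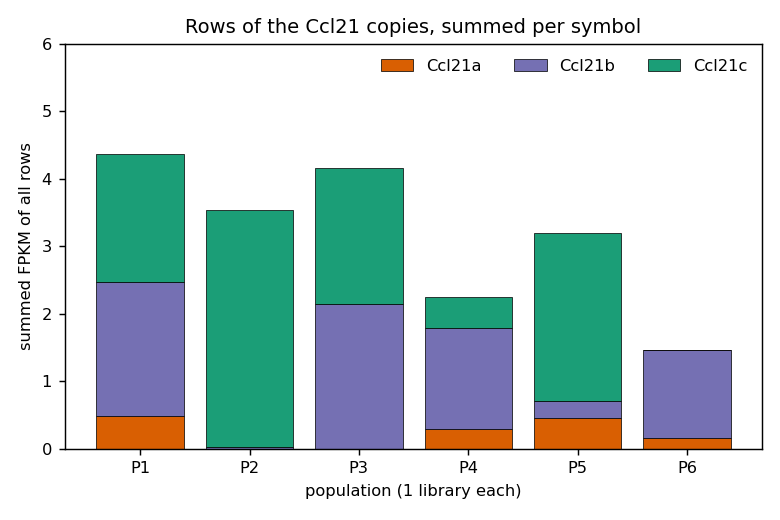
Summed FPKM of all rows of *Ccl21a*, *Ccl21b* and *Ccl21c* (y axis, stacked, from 0) in P1 to P6 (x axis), 1 bar for 1 library. The share of each symbol shifts between libraries while the height of the bars runs only from 1.47 FPKM in P6 to 4.37 FPKM in P1.

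Among the survival factors, *Il33* and *Il7* were lowest in P1, whereas *Tnfsf13b* was highest there. *Il33* (chromosome 19, 29925113 to 29960718) encodes an alarmin that is kept in the nucleus and acts through ST2 on innate lymphoid cells and regulatory T cells. Its FPKM was 54.2, 110, 116, 130, 169 and 79.4 across P1 to P6 in that order. *Il33* was thus the most abundant of the cytokine genes in every library. P5 stood 1.30-fold above P4 (1.28 to 1.33), and after division by *Gapdh* P3 and P2 stood above P4.

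*Il7* (chromosome 3, 7572028 to 7613760) was listed at 1.21, 1.94, 3.74, 4.50, 6.21 and 7.65 FPKM in P1 to P6, respectively. P6 was highest, 6.33-fold above P1, the lowest, and each step in the order P6, P5, P4, P3, P2 and P1 exceeded counting error, although P3 stood above P4 after division by *Gapdh*. The estimated reads behind these levels ran from 102 in P1 to 607 in P5.

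*Tnfsf13b* (chromosome 8, 10006229 to 10036000) was listed at 18.5, 17.8, 15.6, 10.4, 7.57 and 11.9 FPKM going from P1 through P6. The CD105+ libraries were the 3 highest, and P1 and P2 did not differ beyond counting error (ratio 1.04, 0.999 to 1.08). P1 exceeded P5, the lowest, by 2.45-fold.

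*Il15* (chromosome 8, 82331624 to 82403252), a survival factor of natural killer cells and memory CD8 T cells, was scarce. Its FPKM was 1.19, 0.992, 1.01, 0.953, 0.692 and 1.64 across P1 to P6 in that order, from 45 to 67 estimated reads. No pair of neighbours in its order differed beyond counting error at this depth, although P6 exceeded the mean of the others by 1.69-fold (1.29 to 2.22).

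The first question was how the genes varied with ALDH activity among cells of the same CD105 gate. A gene was called when FPKM + 0.1 differed at least 2-fold and FPKM reached 1 in either population. P1 against P2 and P2 against P3 share the P2 library. Between P1 and P2, 1 of the 9 genes that reached 1 FPKM was called lower in P1 and 0 higher, where 4.23% of 11803 genes were called lower and 0.957% higher. The gene was *Il33*, 2.02-fold lower in P1 (1.97 to 2.08), just past the threshold, and *Ccl19* fell just short of it at 1.85-fold (1.77 to 1.94). The median log2 ratio of P1 to P2 was -0.59 over the 9 genes and -0.05 over all genes. *Il33* was not past the threshold after scaling by median of ratios or by *Gapdh*. *Cxcl14* was the exception among the chemokines whose level could be read, with P1 1.58-fold above P2 (1.45 to 1.73).

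Intermediate and low ALDH activity differed chiefly in *Cxcl13*, while *Aldh1a2* itself lay in opposite directions in the 2 pairs, with 78.8 FPKM in P2 and 134 in P3 but 285 in P4 and 145 in P5. P2 held 6.87-fold less *Cxcl13* than P3 (6.76 to 6.98), and P4 held 4.20-fold less than P5 (4.16 to 4.24), which are separate pairs of libraries. In P2 against P3, *Cxcl13* was the 1 gene of 9 called lower and 0 were called higher, with 2.56% of 11980 genes called lower and 1.09% higher. In P4 against P5, *Cxcl13* was the 1 gene of 8 called lower and 0 were called higher, with 1.44% of 12022 genes called lower and 3.93% higher. The log2 ratio of *Cxcl13* lay above that of 0.367% of genes in the first pair and 0.441% in the second. The next largest differences were *Il7*, 1.93-fold lower in P2 than in P3 (1.62 to 2.32), and *Cxcl14*, 2.01-fold higher in P4 than in P5 (1.58 to 2.57) but at a log2 ratio of 0.94 after 0.1 was added. The median log2 ratio over the genes counted was -0.14 in P2 against P3 and -0.30 in P4 against P5, beside -0.03 and -0.04 over all genes.

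Markers of other cells moved along these comparisons. All 8 pancreatic acinar markers were lower in P1 than in P2, with sums of 3.87 and 204 FPKM, and 2 of 3 mural markers were lower, with sums over the whole list of 5.69 and 13.3 FPKM. Of the 6 mural cell markers, 3 reached 1 FPKM in P2 or P3, 2 of these were lower in P2 and 0 higher, and the list summed to 13.3 FPKM in P2 and 46.6 in P3. The sum was 65.4 FPKM in P4 and 104 in P5, where 0 of 3 were called, and most of it was *Myh11*, a smooth muscle myosin, while the pericyte marker *Rgs5* stayed at or below 0.553 FPKM. All 8 acinar markers were higher in P2 than in P3 and in P4 than in P5, with sums of 204 and 22.5 FPKM in the first pair and 1103 and 134 in the second. Of 11 mesothelial markers, 4 of the 8 that reached 1 FPKM were lower in P2 than in P3 and 0 higher, with sums of 118 and 191 FPKM. In P4 against P5, 2 of the 11 were higher and 0 lower, with sums of 1335 and 1100 FPKM. Of 10 lymphoid markers, 3 reached 1 FPKM in P2 or P3, and 2 of these were higher in P2 and 0 lower. In P4 or P5, 1 reached it and 0 were called. The list summed to 8.32 FPKM in P2 and 2.90 in P3 and to 2.77 in P4 and 1.64 in P5. Most of the sum in P2 was the B cell genes *Cd79a*, *Cd79b* and *Ms4a1*, at 3.21, 2.14 and 1.37 FPKM. *Cd3e* and *Nkg7* were at 0 in P4. The part of these cells in the levels of the chemokines was not tested.

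The second question was how CD105+ and CD105- cells of like ALDH activity differed. The 2 pairs of libraries share none with each other, but each shares its libraries with the comparisons by ALDH activity and, as do all comparisons here, with the mean set against P6. At intermediate ALDH activity, 3 of 8 genes were higher in P2 than in P4 and 2 were lower, with 4.90% of 12181 genes called higher and 7.63% lower. *Ccl19* was 4.23-fold higher in P2 (3.98 to 4.50), *Cxcl12* 3.84-fold higher (3.77 to 3.91) and *Cxcl14* 4.23-fold higher (3.63 to 4.96). *Cxcl13* was 2.71-fold lower in P2 (2.67 to 2.76) and *Il7* 2.32-fold lower (1.95 to 2.78). At low ALDH activity, 4 of 9 genes were higher in P3 than in P5 and 0 lower, with 7.33% of 12152 genes called higher and 6.29% lower.

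In the pair with low ALDH activity the 4 higher genes were 3 chemokines and BAFF. *Cxcl14* was 9.36-fold higher in P3 (7.64 to 11.6), *Cxcl12* 5.11-fold higher (5.01 to 5.22), *Ccl19* 4.42-fold higher (4.19 to 4.68) and *Tnfsf13b* 2.06-fold higher (1.95 to 2.17). *Cxcl13* was 1.66-fold lower in P3 (1.65 to 1.67) and *Il7* 1.66-fold lower (1.45 to 1.90), both short of the threshold. The median log2 ratio was 0.56 over the 8 genes in the first pair and 0.49 over the 9 genes in the second, beside -0.08 and -0.09 over all genes.

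Scaling mattered in this comparison. *Gapdh* was listed at 214 to 224 FPKM in P1 to P3 and at 302 and 326 FPKM in P4 and P5, so that division by it moved the median log2 ratio of all genes to 0.39 in P2 against P4 and to 0.45 in P3 against P5. On that scale *Cxcl13* in P2 against P4 stood at a log2 ratio of -0.97 and *Il7* at -0.72, neither past the threshold, and the sign of *Il33* turned from -0.24 to 0.23. *Tnfsf13b* was past it at 1.23, which left 4 genes higher in P2 and 0 lower. In contrast, *Ccl19*, *Cxcl12* and *Cxcl14* were past the threshold in both pairs on either scale. Of the 11 mesothelial markers, 10 were lower in P2 than in P4, with sums of 118 and 1335 FPKM, and 9 of the 10 that reached 1 FPKM were lower in P3 than in P5, with sums of 191 and 1100 FPKM, while 0 were higher in either pair. All 8 acinar markers were lower in P2 than in P4 and in P3 than in P5. The sums were 204 and 1103 FPKM in the first pair and 22.5 and 134 FPKM in the second. The sums of lymphoid and myeloid markers lay the other way in both pairs. In the first pair 3 of 3 lymphoid markers, all B cell genes, were higher in P2, with sums of 8.32 and 2.77 FPKM. In the second pair 0 lymphoid markers reached 1 FPKM, with sums of 2.90 and 1.64 FPKM. Of 6 myeloid markers, 1 was higher in P2 and 0 lower, with sums of 37.5 and 20.9 FPKM. In the second pair 4 of 6 were higher in P3 and 0 lower, with sums of 39.2 and 15.6 FPKM. Of 3 mural markers, 1 was higher and 2 were lower in the CD105+ library of each pair. Of 7 fibroblast markers 3 were higher and 0 lower in the CD105+ library of each pair. The endothelial markers that reached 1 FPKM, *Esam* and *Kdr*, were both lower in P2 than in P4 and in P3 than in P5. They made up most of the sum over the whole list in P4 and P5. Whole-list sums were 2.76 and 19.1 FPKM in the first pair and 4.26 and 12.2 FPKM in the second. Among the markers below 1 FPKM, *Pecam1*, *Cdh5*, *Tie1*, *Emcn* and *Egfl7* were higher in the CD105+ library of each pair. *Pecam1* was at 0.370 and 0.0672 FPKM in P2 and P4 and at 0.552 and 0.0955 FPKM in P3 and P5. *Erg* was lower in the CD105+ library of each pair, and *Vwf* and *Cldn5* differed in direction between the pairs. The part of these lists in the result was not tested.

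**Figure D4:**
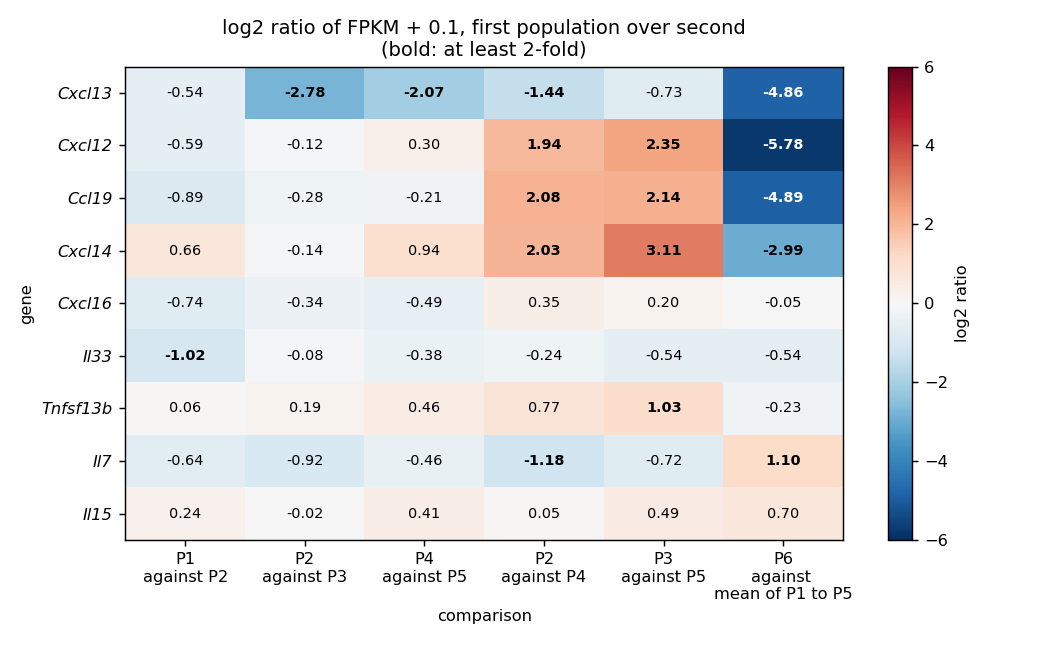
Log2 ratio of FPKM + 0.1, first population over second (colour and printed value), for 9 genes (rows) in the 6 comparisons (columns), with *Ccl21a* left out because its copies share reads and bold for at least 2-fold. *Cxcl13* is bold and negative for P2 against P3 (-2.78) and P4 against P5 (-2.07), and *Cxcl12*, *Ccl19* and *Cxcl14* are bold and positive in both comparisons of CD105+ with CD105- cells.

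P6, the CD140a low population, was set against the mean of P1 to P5. Of 9 genes, 4 were lower in P6 and 1 was higher, with 9.25% of 12625 genes called lower and 12.0% higher. *Cxcl12* was 55.8-fold lower (50.6 to 61.6), *Ccl19* 30.5-fold lower (24.2 to 38.4), *Cxcl13* 29.1-fold lower (27.7 to 30.5) and *Cxcl14* 8.81-fold lower (6.64 to 11.7). The mean of *Cxcl13* was carried by P5 and P3, and against P1, the lowest of the other libraries, *Cxcl13* was 4.41-fold lower in P6 (4.19 to 4.65). Against P5, the lowest of the others for *Cxcl14*, this gene was 1.28-fold lower in P6, with an interval that included 1 (0.905 to 1.84). *Il7* was 2.17-fold higher in P6 (1.96 to 2.41). *Cxcl16* was level with the mean, at a ratio of 0.968 (0.920 to 1.02), while *Il33* and *Tnfsf13b* were 1.46- and 1.18-fold lower. The median log2 ratio over the 9 genes was -0.54, beside 0.09 over all genes.

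The library of P6 carried markers of mesothelial cells, the lining of the peritoneum. Of the 11 mesothelial markers, 10 were higher in P6 than in the mean of the others and 0 lower, and their sum was 3523 FPKM, against 94.2 to 1335 FPKM in P1 to P5. Acinar markers were also higher, 8 of 8, with a sum of 1617 FPKM that was 0.420% of all FPKM in P6. Of the adipocyte markers that reached 1 FPKM, 5 of 5 were higher, and the list summed to 156 FPKM in P6 and at most to 5.46 FPKM elsewhere, with *Lep* at 0 in P6. Endothelial markers, 3 of 3 higher, summed to 113 FPKM in P6 against 1.93 to 19.1 FPKM in the others, nearly all of it *Esam* and *Kdr*, while *Pecam1* and *Cdh5* stayed below 1 FPKM and *Erg* was at 0. Of the mural markers that reached 1 FPKM, 3 of 5 were higher in P6 and 1 was lower. *Acta2* was at 35.0 FPKM and *Notch3* at 0.258 FPKM, and the list summed to 58.5 FPKM, within the 5.69 to 104 FPKM of the others. Myeloid markers, 3 of 6 higher, summed to 57.6 FPKM in P6, against 15.6 to 39.2 FPKM in the others, with *Fcgr1* at 0. The fibroblast and reticular cell markers lay the other way. Of 7 fibroblast markers 4 were lower in P6 and 0 higher, the gate gene *Pdgfra* included, with *Dpt* at 8.70 FPKM and *Lum* at 6.19 FPKM, although the list summed to 7268 FPKM in P6, within the 6860 to 10989 FPKM of the others. Of the 5 reticular cell markers that reached 1 FPKM, 3 were lower in P6 and 0 higher, and the list summed to 210 FPKM against 308 to 498 FPKM. The part of all these cells in the low chemokine levels was not tested.

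Of 16 genes listed for receptors of these ligands, atypical chemokine receptors included, 7 reached 1 FPKM in any library. The signalling receptors of lymphocytes were scarce in these cells, whose CD45- gate leaves lymphocytes out. *Cxcr5*, *Ccr7*, *Cxcr6* and *Il7r* were below 1 FPKM in every library and *Cxcr4* was at most at 1.87 FPKM in P3. *Ackr3* and *Ackr1* were the most abundant of the 16, and both encode atypical receptors, which bind chemokines without the usual signal. *Ackr3*, a scavenger of CXCL12 listed as *Cxcr7*, was at 194, 86.2, 46.9, 87.3, 16.5 and 60.8 FPKM in P1 to P6, respectively. P1 stood highest, 2.25-fold above P2, and P4 stood 5.29-fold above P5. *Ackr1*, listed as *Darc*, was at 51.2, 35.5, 24.5, 25.7, 12.3 and 8.14 FPKM going from P1 through P6, and was 2.09-fold higher in P4 than in P5. Whether its product binds any of these ligands was not examined. *Ackr4*, a scavenger of CCL19 and CCL21 listed as *Ccrl1*, was at 2.19 FPKM in P1 and at 4.38 to 6.37 FPKM in the others, with P1 called lower than P2.

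*Il15ra*, which holds IL-15 on the cell surface for presentation, was listed far above *Il15* in P1 to P5. *Il15ra* was at 11.8 to 15.8 FPKM there and *Il15* at 0.692 to 1.19 FPKM. In P6 they were closer, at 4.60 FPKM for *Il15ra* and 1.64 FPKM for *Il15*. *Il1rap*, the shared chain of the IL-33 receptor, ran from 2.87 to 6.09 FPKM, whereas *Il1rl1*, the chain that binds IL-33, stayed at or below 0.561 FPKM. *Il2rg*, the common chain used by IL-7 and IL-15, was at most at 1.69 FPKM in P2. Counts of called receptors, higher then lower in the first population, were 1 and 1 of 7 in P1 against P2, 0 and 0 of 7 in P2 against P3, 2 and 0 of 6 in P4 against P5, 1 and 0 of 7 in P2 against P4, 2 and 0 of 7 in P3 against P5, and 0 and 3 of 7 in P6 against the mean. Over all genes, the shares for the first 3 comparisons were 0.957% and 4.23%, 1.09% and 2.56%, and 3.93% and 1.44%. For the last 3 they were 4.90% and 7.63%, 7.33% and 6.29%, and 12.0% and 9.25%.

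Of the 4 proteases that process these proteins, *Dpp4* alone was called in any comparison. DPP4 trims the amino end of CXCL12. *Dpp4* was listed at 7.12, 5.17, 2.20, 11.01, 5.42 and 71.2 FPKM across P1 to P6 in that order, and P6 stood 11.5-fold above the mean of the others. *Dpp4* was also higher in P2 than in P3 and in P4 than in P5, by 2.35- and 2.03-fold. It was lower in P2 than in P4, at a ratio of 0.470, and in P3 than in P5, at a ratio of 0.407. *Adam10* and *Adam17*, whose products release CXCL16 from the membrane, and *Furin*, whose product cleaves BAFF, were present at 16.0 to 37.2 FPKM in all libraries.

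A further 12 chemokine and survival factor genes were examined, of which 9 reached 1 FPKM. *Tnfsf13*, which encodes APRIL, the B cell and plasma cell factor closest to BAFF, was listed at 2.27, 8.88, 13.5, 20.4, 27.3 and 22.2 FPKM in P1 to P6, respectively. It was lowest where *Tnfsf13b* was highest and highest where *Tnfsf13b* was lowest, and the ratio of *Tnfsf13* to *Tnfsf13b* was 0.122, 0.498, 0.864, 1.95, 3.61 and 1.87 going from P1 through P6. BAFF was thus the more abundant transcript of the pair in the CD105+ libraries and APRIL in the others.

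*Flt3l*, a growth factor of dendritic cell precursors, was listed at 34.2 to 48.8 FPKM in P1 to P3 and at 14.5 to 18.4 FPKM in P4 to P6. *Kitl*, the stem cell factor, lay the other way, with 5.27 to 8.91 FPKM in P1 to P3 and 25.9 to 34.5 FPKM in P4 to P6. *Tslp*, an epithelial and stromal cytokine, was highest in P1 at 5.43 FPKM and lowest in P6 at 0.348 FPKM. *Cx3cl1* and *Ccl27a* were listed at 0.369 to 2.89 and at 5.53 to 10.04 FPKM. Leaving out *Ccl21b* and *Ccl21c*, whose levels could not be read, the called numbers higher and lower in the first population were, of 7 genes, 1 and 2 in P1 against P2, 0 and 0 in P2 against P3, 1 and 0 in P4 against P5, 1 and 2 in P2 against P4, 2 and 2 in P3 against P5, and 1 and 2 in P6 against the mean. The shares over all genes, in the same order, were 0.957% and 4.23%, 1.09% and 2.56%, and 3.93% and 1.44%. In the last 3 comparisons the shares were 4.90% and 7.63%, 7.33% and 6.29%, and 12.0% and 9.25%. *Flt3l* was the gene called higher in P2 than in P4, *Tslp* and *Flt3l* were higher in P3 than in P5, and *Tnfsf13* and *Kitl* were lower in both pairs.

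**Figure D5:**
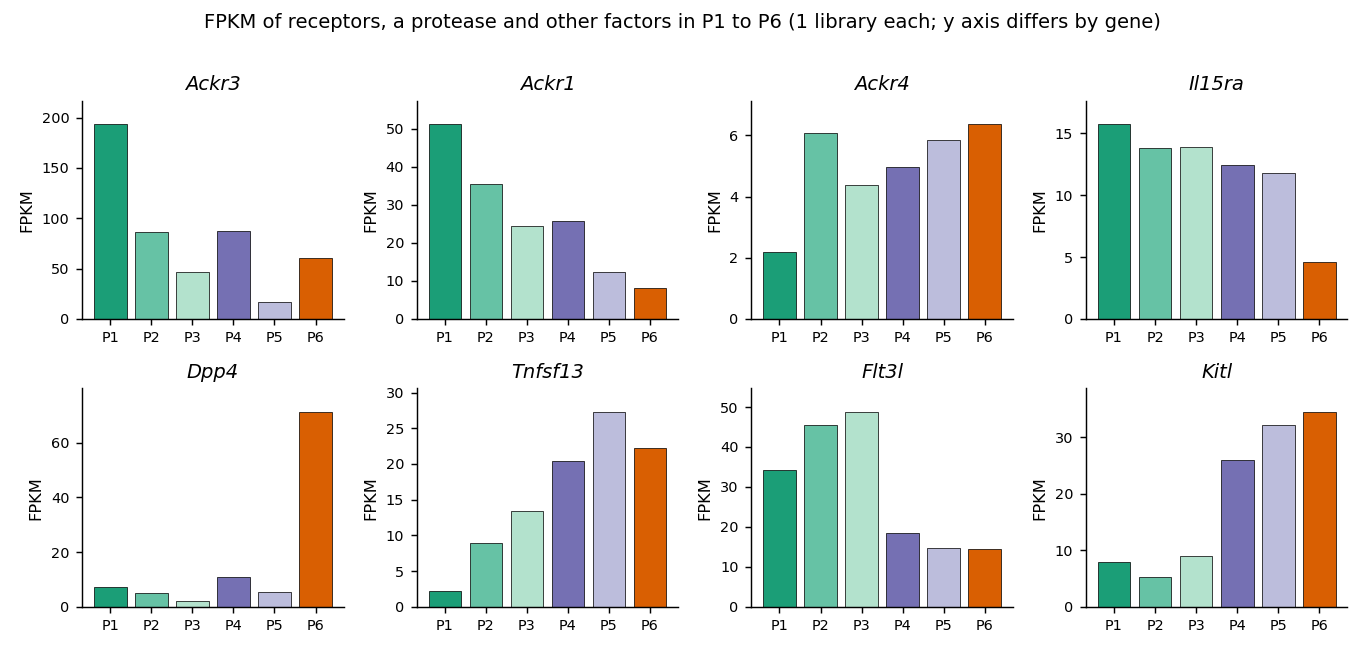
FPKM (y axis, from 0, scaled for each gene) of 4 receptors, the protease gene *Dpp4* and 3 other factors in P1 to P6 (x axis), 1 bar for 1 library. *Ackr3* is highest in P1 at 194 FPKM, *Dpp4* reaches 71.2 FPKM in P6, and *Tnfsf13* and *Kitl* are higher in P4 to P6 than in P1 to P3 while *Flt3l* is lower.

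The genes with the most similar profile were sought among 11915 genes, by the Euclidean distance between log2 profiles over the 6 libraries, each centred on its own mean. No gene lay within a distance of 1 of *Cxcl13*, whose nearest were *Sele* (1.74), *Rgs7bp* (1.82) and *Lect1* (1.83). *Sele*, the endothelial adhesion molecule E-selectin, was itself at most at 2.65 FPKM, in P5. *Ccl19* and *Cxcl12* each had 13 genes within that distance and lay 0.963 from each other. The nearest genes were *Fbln7*, *Ebf3* and *Adamts4* for *Ccl19* and *Sparcl1*, *Dio3os* and *S1pr3* for *Cxcl12*. *Cxcl14* had 2 genes within the distance, *Nkx2-3* (0.894), a homeobox gene, and *Smoc2* (0.955), a matrix protein gene, and the next was *Msx1as* (1.03).

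Genes that varied less had more neighbours. For *Il7*, 250 genes lay within a distance of 1, with *Igsf3* (0.241), *Fam83h* (0.303) and *Gata6* (0.349) nearest, and *Gata6*, a transcription factor gene, ran from 14.9 FPKM in P1 to 80.9 FPKM in P6. For *Il33* the nearest of 1016 genes were *Mid2*, *H2-T24* and *Vamp5*, and for *Tnfsf13b* the nearest of 1589 were *Dhrs3*, *Adhfe1* and *Fam174b*. *Dhrs3*, which encodes a retinaldehyde reductase, was listed at 44.2 to 51.2 FPKM in P1 to P3 and at 22.9 to 30.9 FPKM in P4 to P6. *Cxcl16* had 6327 genes within the distance, led by *Plekhh2*, *Trim68* and *Metrn*, and *Il15* had 5223, led by *Htra2*, *Car15* and *Ppip5k1*. *Ccl21a* had 0, and its nearest, *Akr1b3*, *Gpr133* and *Aldh1a2*, rest on a level that could not be read.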

How the data were processed

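RNA-seq was analyzed for 6 stromal populations of the omentum, 1 library each, made with the NEBNext Ultra kit and read as single ends of 76 bp. The authors deposited FPKM values per gene symbol. The submitters' processing notes name TopHat2 2.0.7, Cufflinks 2.1.1 and mm10. The pooling of mice was not given in the sources used here. Of 23847 rows, 495 repeated a symbol already listed, and the FPKM of such rows was added up for each symbol. Groups came from the sample labels, and the gates of each population from the text and the gating plot of the paper.

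Depth was estimated from the steps between low FPKM values, with a fragment length of 200 nt assumed. Whole reads, to within 0.05, made up 56.2% to 59.7% of the low values tested in a library, where chance gives 10%, so no test for counts was run. Reads of a gene were estimated from its FPKM, the depth and the length of its shortest transcript with a RefSeq mRNA entry. Where no transcript had such an entry, the shortest of all was taken. Intervals at 95% are exact binomial intervals on estimated reads, and for the mean of P1 to P5 normal intervals on the log ratio. Their widths depend on the depth and the length assumed. Log2 ratios used FPKM + 0.1, and calls needed at least 2-fold and 1 FPKM in either population. *Ackr3*, *Ackr4*, *Ackr1*, *Adgre1* and *Cxcl15* were found under older symbols. Coordinates and sequences are those of RefSeq for GRCm38.p6, the assembly that mm10 represents.

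The 10 genes and all gene lists were chosen with earlier results of these data known. Named genes were the 10 members, listed genes that reached 1 FPKM, the gate genes, *Gapdh* and the 3 nearest profiles of each member among genes with a mean of at least 1 FPKM, and listed genes below 1 FPKM or at 0 were named after their values were seen. Other pseudocounts, minima, scalings and folds and the highest row of a repeated symbol were tried as alternatives. Python 3.11.15 was used with scipy 1.17.1, numpy 2.4.6, matplotlib 3.10.9 and pandas 2.3.3.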

Additional observations from a re-analysis of the deposited data

Results flagged for a closer look

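In 2 genes the change between intermediate and low ALDH activity had opposite directions in the CD105+ and the CD105- cells, with both beyond counting error on the deposited scale. For *Cxcl12* the log2 ratio of intermediate to low was -0.12 in P2 against P3 and 0.30 in P4 against P5, which differ by -0.41. For *Cxcl14* the log2 ratios were -0.14 and 0.94, which differ by -1.08. The interval of *Cxcl14* in P2 against P3 only just excluded no change, with a ratio of 0.909 (0.828 to 0.996). By median of ratios and by *Gapdh* its log2 ratio there was -0.10, and no interval was computed on those scales. The log2 ratios of *Il15* also had opposite signs, -0.02 and 0.41, but both intervals included no change. Under either rescaling the first became 0.01, and the signs were then the same. With 1 library per population, none of these differences was tested.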

How the results depend on the processing

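No paired analysis was possible because a population had only 1 library. The counts of called genes in P2 against P4, P3 against P5 and P6 against the mean stayed within 1.5 times under all 7 alternatives, which does not say that each gene kept its call: with a pseudocount of 1, *Tnfsf13b* in P3 against P5 and *Il7* in P2 against P4 and in P6 were no longer called. In P1 against P2 the count of 1 became 2 without a minimum FPKM, 0 by median of ratios, 0 after division by *Gapdh* and 6 at a threshold of 1.5-fold. At 1.5-fold the count was 2 in P2 against P3 and 2 in P4 against P5, and it was 2 in P4 against P5 after division by *Gapdh*. The share of all genes was computed only for the rule as reported. Counts under the alternatives, those at 1.5-fold included, therefore have no background beside them and cannot be read as a shift of the 10 genes. Relative to the order of the 6 populations as deposited, *Cxcl16*, *Il33* and *Il7* changed order after division by *Gapdh*, and *Il15* after either rescaling. The highest population of each of the 10 genes was the same under the 3 alternatives run for it. Its ratio to the population that stood next under the same setting became, by median of ratios and by *Gapdh*, 1.56 and 1.14 for *Cxcl13*, 1.06 and 1.06 for *Cxcl12*, 1.22 and 1.23 for *Cxcl16*, and 1.27 and 1.001 for *Il33*, and by *Gapdh* it became 1.49 for *Il7*. The cause of these shifts was not tested. With 1 library per population, depth limits *Il15*, shared reads among copies limit *Ccl21a*, and the spread between mice was not measured for any gene.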
